A study of Rattus norvegicus with 8 samples.

Results

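Nptx1, Nptx2, Nptxr, Nrn1, Vgf, Chga, Chgb, Scg2 and Scg3 are neuronal genes whose products leave the cell or sit on its surface: the neuronal pentraxins, neuritin and the granins. All 9 genes were found by their symbol in the deposited table, out of 10746 genes with a named and tested probe. They were brought together with their ligation and control values already known, so the difference between those groups is given for them as a description, without a test. The tissue was the dorsal root ganglion of Sprague Dawley rats, with 4 samples per group and 2 animals pooled in each sample. The ligation group was taken 7 days after the spinal nerves were tied, an operation known as the Chung model of neuropathic pain. The control group is called contralateral in the sample titles and sham-operated in the sample descriptions, so that side and operation cannot be told apart. The labels state no age or sex and name no engineered allele or drug for either group.

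The 2 secreted neuronal pentraxins, encoded by Nptx1 and Nptx2, gather AMPA-type glutamate receptors at synapses, and Nptxr encodes a pentraxin that spans the membrane. Neuritin, the Nrn1 product, is a small lipid-anchored protein that promotes neurite growth. Granins are acidic proteins stored in dense-core vesicles, the organelles from which neurons and endocrine cells release peptides, and many are cut into peptides themselves. In sensory neurons these vesicles carry neuropeptides such as substance P and calcitonin gene-related peptide.

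Each sample was hybridised on its own two-colour array against a common pool of control ganglia, and a ratio below is the log2 of sample intensity over reference intensity. A log2 difference is the mean ratio of the ligation arrays minus that of the control arrays. Of all 10746 genes, 66.1% passed the test between the groups (adjusted p under 0.05), 30.2% as higher in ligation and 35.9% as lower. Over all 22379 probes, named or not, the shares were 58.6%, 26.4% and 32.2%. Among the 9 members 1 was past that threshold as higher, 7 as lower and 1 was not past it. Past it and at least 2-fold lower were 6 members, against 4.7% of genes, and at least 2-fold higher was 1, against 6.47%. Ligation and control values did not overlap for 8 members, 7 of them lower, where this held for 62.5% of the 10629 genes measured on every array and, as lower, for 33.8%. Nothing is read from these counts, because the members were chosen on this contrast. On the control arrays the mean log2 ratios of the 9 members to the reference pool, itself made of control ganglia, were -0.01 to 0.15. In limma 0 of them passed against the pool (adjusted p of 0.349 or more), where 0.661% of all probes did. The spread in that fit also comes from the ligation arrays. It could therefore hardly detect a difference for members that varied there, such as Nptx1 and Scg2 (SE 0.26 and 0.28).

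Markers of sensory neurons were lower in the same samples. Of 14 markers listed 7 were measured, and 6 of these, among them Avil, Nefh and Snap25, were past the test as lower, with Tubb3 the exception. The median log2 difference of the 7 was -1.47, and their summed sample intensity, over the 6 with a value on every array, ranged from 33.3 to 38.0 in control and from 15.2 to 18.99 in ligation. None was at 0. In whole ganglia, fewer cells of a type and less RNA per cell cannot be told apart, and the part of this shift in the members' values was not tested. Macrophage markers were higher in 7 of 8 genes, with a summed intensity of 6.01 to 7.25 in control and 47.4 to 49.6 in ligation. Fibroblast markers (6 of 6 higher) summed to 24.1 to 33.0 and 50.2 to 64.0, and T cell markers (6 of 6 higher) to 0.71 to 0.99 and 1.16 to 1.52. Of 6 Schwann cell and myelin markers 3 were lower and 1 higher, with sums of 35.4 to 46.3 and 29.8 to 36.0. Granins are also made by sympathetic neurons and chromaffin cells. Their measured markers, Th, Dbh, Pnmt, Phox2a and Slc6a2, summed to 0.437 to 0.583 in control and 0.393 to 0.420 in ligation. Th and Pnmt were past the test as lower and none was past it as higher. The log2 difference of Pnmt was small (-0.23), and its mean sample intensity was 0.1075 in both groups.

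**Figure D1:**
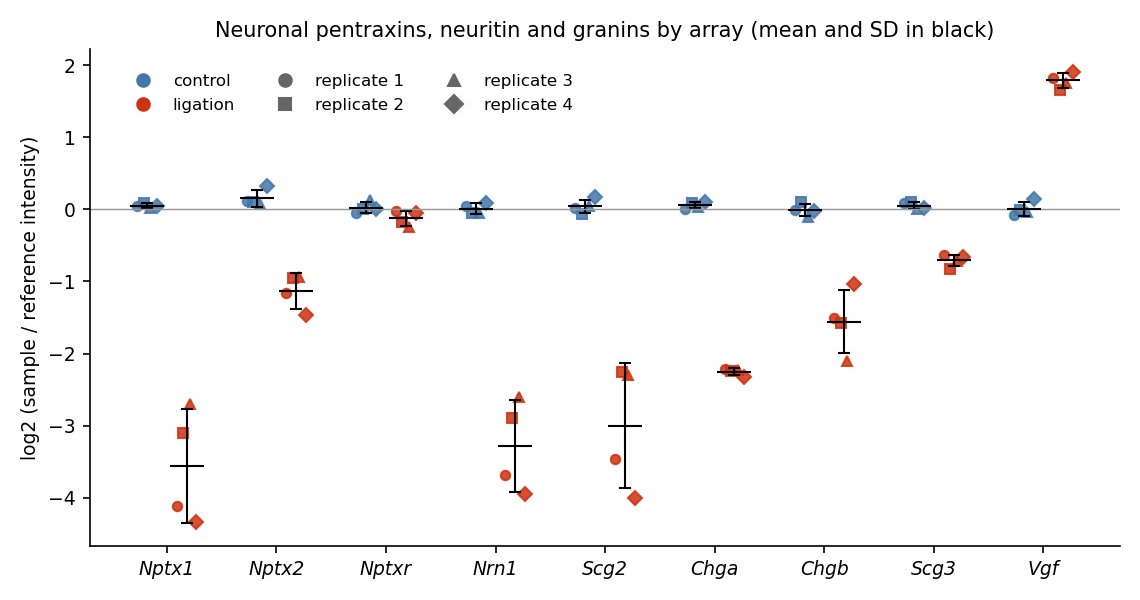
Log2 ratio of sample over reference intensity (y axis) of the 9 genes (x axis) on the 4 control arrays (blue) and the 4 ligation arrays (red), with marker shapes for the replicates and the mean with SD in black. All control values lie near 0, Vgf is the member above them in ligation, and Nptx1, Nrn1 and Scg2 lie lowest with replicates 1 and 4 below 2 and 3.

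Nptx1 (neuronal pentraxin 1, U18772) had the lowest ratio of the set. Its log2 ratios were 0.05, 0.09, 0.02 and 0.05 on control arrays 1 to 4 and -4.12, -3.10, -2.70 and -4.33 on ligation arrays 1 to 4. The groups did not overlap, and ligation arrays 1 and 4 lay more than 1.0 below arrays 2 and 3. The log2 difference was -3.62 ± 0.36 (SE, n = 4 per group), 12.3-fold lower, the 7th lowest of the 10746 genes. The sample intensity went from 5.15 ± 0.24 (SD) in control to 0.515 ± 0.286 in ligation, while the reference intensity on the same spots was 4.96 and 5.39.

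Nptx2 (neuronal pentraxin 2, known as Narp, g3812510 in the table) was lower by much less. Its log2 ratios were 0.12, 0.10, 0.07 and 0.32 in control and -1.16, -0.96, -0.94 and -1.47 in ligation. Here too the groups did not overlap and replicate 4 had the lowest value, followed by replicate 1. This gave a log2 difference of -1.28 ± 0.13, or 2.43-fold, rank 306 from the lowest. Nptx1 and Nptx2 therefore stood side by side at -3.62 and -1.28 on the same arrays.

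Nptxr (the pentraxin receptor, AF005099) was measured by 3 dim spots of 1 sequence, which did not go the same way. The mean sample intensity of these spots was 0.073 in control and 0.087 in ligation, near the steps of 0.01 in which the table is printed. Of these spots 2 had log2 differences of -0.43 and -0.23, and the brightest had 0.21. Averaged, the ratios were -0.05, 0.00, 0.14 and 0.00 in control and -0.02, -0.17, -0.25 and -0.05 in ligation, and the groups overlapped. Their log2 difference was -0.15 ± 0.06, and rounding alone allowed -0.80 to 0.49, so that no direction could be given for this gene.

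Nrn1 (neuritin, U88958) was close to Nptx1 in size and in its order of arrays. Its log2 ratios were 0.05, -0.05, -0.06 and 0.09 in control and -3.68, -2.90, -2.61 and -3.95 in ligation. No ligation array came near a control array, and replicates 4 and 1 were again the lowest. Between the groups the log2 difference was -3.29 ± 0.29, 9.80-fold lower and 10th lowest of all genes. Its sample intensity was 12.7 ± 0.4 in control and 1.74 ± 0.68 in ligation.

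**Figure D2:**
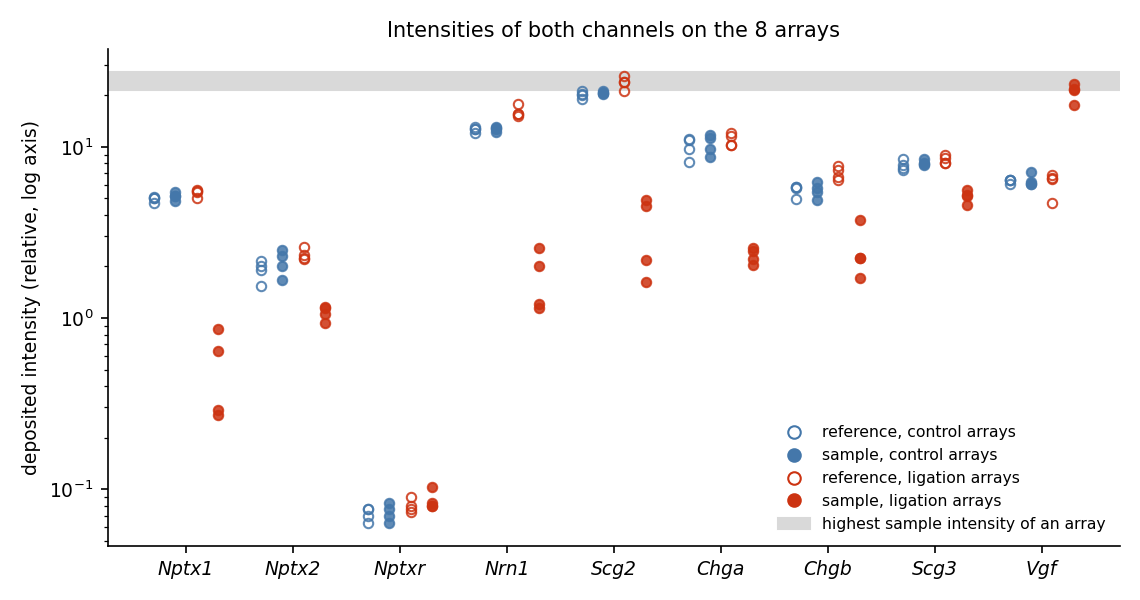
Deposited intensity on a relative log axis (y) of the 9 genes (x), for the reference channel (open) and the sample channel (filled) of the control arrays (blue) and the ligation arrays (red), 4 points each; the grey band runs from the lowest to the highest of the 8 arrays' maximum sample intensities. The sample channel of the ligation arrays leaves the other 3 columns, downward for 7 genes and upward for Vgf, which reaches the grey band, while the columns of Nptxr overlap.

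Scg2 (secretogranin II, the precursor of the peptide secretoneurin, NM_022669) was the granin with the lowest ratio. The log2 ratios were 0.02, -0.06, 0.04 and 0.16 in control and -3.46, -2.25, -2.29 and -3.997 in ligation. All ligation values were below all control values, and replicates 4 and 1 were the lowest pair. The log2 difference was -3.04 ± 0.40, 8.24-fold lower. The sample intensity was 20.8 ± 0.3 in control and 3.295 ± 1.63 in ligation. In 12 of the 16 channels at least 20 bright spots piled up at a common value, which was 17.77 to 30.1 depending on the channel. The reference intensity of Scg2 was 18.9 to 26.03. It lay above the pile of its own channel on ligation arrays 1 to 4 (piles at 19.86 to 21.61). On control array 4 it lay below the pile (30.1), and the reference channels of control arrays 1 to 3 had no such pile. Whether the bright end of the scale lowers the fold was not tested. Under quantile normalization of the log2 ratios, which gives all arrays the same distribution, the difference was -2.34 for Scg2 and -2.60 for Nrn1.

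Chga (chromogranin A, NM_021655) was lower by nearly the same amount on every ligation array. Its log2 ratios were 0.00, 0.09, 0.04 and 0.10 in control and -2.22, -2.23, -2.23 and -2.33 in ligation. The difference of -2.31 ± 0.03 (4.96-fold) had the smallest standard error of the 9 genes. Chgb (chromogranin B, NM_012526) differed from Chga in this respect. Its log2 ratios were -0.01, 0.10, -0.11 and -0.03 in control and -1.51, -1.57, -2.10 and -1.04 in ligation, with replicate 3 lowest and replicate 4 highest. On average its log2 difference was -1.55 ± 0.20, or 2.92-fold.

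Scg3 (secretogranin III, which binds chromogranin A and is known for sorting it to vesicles, NM_053856) had the smallest difference among the members past the threshold. The log2 ratios were 0.08, 0.10, 0.00 and 0.02 in control and -0.64, -0.82, -0.72 and -0.66 in ligation. The values did not overlap and were closely grouped. Its log2 difference was -0.76 ± 0.05, 1.69-fold lower, rank 830 from the lowest.

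Vgf (a neurotrophin-inducible granin-like peptide precursor, NM_030997) was the single member higher in ligation. Its log2 ratios were -0.08, -0.01, -0.04 and 0.15 in control and 1.83, 1.66, 1.76 and 1.91 in ligation. The 4 ligation values lay within 0.25 of each other and far above control. The log2 difference was 1.78 ± 0.07, 3.44-fold higher, rank 235 from the highest. The sample intensity was 6.36 ± 0.52 in control and 21.01 ± 2.39 in ligation. At that level only 4, 12, 16 and 174 spots of the 23403 to 23412 measured per array were brighter on ligation arrays 1 to 4, and on arrays 1 and 2 Vgf stood at 23.14 and 21.53 where the brightest spot read 23.15 and 21.56. Whether this end of the scale lowers the fold was not tested. Quantile normalization gave a smaller difference of 1.19. Relative to the median of the sensory neuron markers on the same array, Vgf was higher by 3.29, Nptxr, on its dim spots, by 1.36 and Scg3 by 0.75. Chgb differed by -0.04, Nptx2 by 0.23 and Chga by -0.80, and Scg2, Nrn1 and Nptx1 by -1.53, -1.78 and -2.11. The markers themselves ran from -2.51 (Avil) to 0.01 (Tubb3) in log2 difference. Vgf lay above all of them and Scg2, Nrn1 and Nptx1 below all, while for the other members the sign depends on the marker.

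Vgf and Scg2 went in opposite directions, and their upstream sequences are shown because both hold the same cyclic AMP response element, the letters TGACGTCA to which CREB-family factors are known to bind. Promoter windows from RefSeq (GRCr8), which run from 250 bases before to 50 bases after a gene's start, were found for 5 of the 9 members. The 250 bases before the start are printed 5′ to 3′ on the gene's strand, for Vgf at chr12:25277021-25277270 (minus strand) and for Scg2 at chr9:88256867-88257116 (minus strand). Capitals mark TGACGTCA, which begins at base -90 in Vgf and -123 in Scg2, and, in Vgf, TATAAA at -41.
Vgf: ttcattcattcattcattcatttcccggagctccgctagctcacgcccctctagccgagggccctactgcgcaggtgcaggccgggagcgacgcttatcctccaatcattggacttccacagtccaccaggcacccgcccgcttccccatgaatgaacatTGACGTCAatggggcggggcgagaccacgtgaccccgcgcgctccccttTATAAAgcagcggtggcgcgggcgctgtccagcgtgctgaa
Scg2: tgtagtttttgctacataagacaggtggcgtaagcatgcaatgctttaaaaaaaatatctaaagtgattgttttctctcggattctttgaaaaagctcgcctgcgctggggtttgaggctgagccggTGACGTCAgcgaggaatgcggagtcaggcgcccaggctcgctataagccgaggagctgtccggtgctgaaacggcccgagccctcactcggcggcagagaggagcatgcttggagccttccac

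TGACGTCA was present in 1.83% of all 33469 windows, read on both strands. The first 5 letters of that element, TGACG, on either strand, was present in 21.2% of windows, including every window that holds the full element. Nptx2 and Scg3 each had 1 such match, at -90 and -69, within chr12:15162106-15162160 and chr8:85322524-85322578 (both minus strand, GRCr8), shown with TGACG in capitals to compare with the full elements above.
Nptx2: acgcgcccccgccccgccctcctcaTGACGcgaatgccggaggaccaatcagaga
Scg3: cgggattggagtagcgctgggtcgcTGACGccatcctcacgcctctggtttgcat

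The window of Chgb held neither form. TGANTCA, the AP-1 letters (7.33% of windows, both strands), was in none of the 5 windows, and TATAAA on the gene's strand (8.80% of windows) was in that of Vgf alone. A match to RE1, the element of the repressor REST, with up to 4 of its 21 letters different on either strand, was found in Vgf and in 0.0717% of all windows. These matches describe letters in a window and were not tied to binding. Among 269 measured genes with TGACGTCA in their window, 68 passed the test as higher (25.3%) and 122 as lower (45.4%), beside 30.4% and 36.2% of all 8576 measured genes with a window. Their median log2 differences were -0.10 and -0.05.

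The spread over the ligation arrays was graded among the members. The SD over the 4 ligation arrays was 0.87 for Scg2, 0.79 for Nptx1 and 0.63 for Nrn1, which ranked 16th, 33rd and 68th of 10629 genes, where Scg3, at 0.08, ranked 5333rd. Chgb (0.43) and Nptx2 (0.25) followed, and Nptxr (0.11), Vgf (0.10), Scg3 and Chga (0.05) had the least. On the control arrays the SD of all 9 was 0.03 to 0.11. Replicates 1 and 4 were the 2 lowest ligation arrays for Nptx1, Nrn1, Scg2 and Nptx2, 4 of the 9 members. The same was seen in 70 of the 90 genes that were past the test and at least 4-fold lower (77.8%, members included), in 17.1% of all 3835 genes past the test as lower and in 24.6% of all genes. The median of the sensory neuron markers was even, at -1.49, -1.52, -1.54 and -1.55 on ligation arrays 1 to 4. Medians of some other cell types varied more. Replicates 1 and 4 were the 2 lowest for macrophage (2.15, 2.19, 2.28 and 2.04) and satellite glia markers (-0.11, 0.10, 0.04 and -0.54). Fibroblast and endothelial markers had that order too. Those replicates were the 2 highest for Schwann cell and myelin (-0.16, -0.36, -0.47 and -0.25) and spinal cord glia markers. The remaining marker lists had neither order. Whether this bears on the members was not tested. On ligation arrays 2 and 3 alone, a subset chosen after seeing the data, the log2 differences were -2.95 for Nptx1, -2.76 for Nrn1, -2.31 for Scg2, -1.10 for Nptx2 and -1.83 for Chgb.

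**Figure D3:**
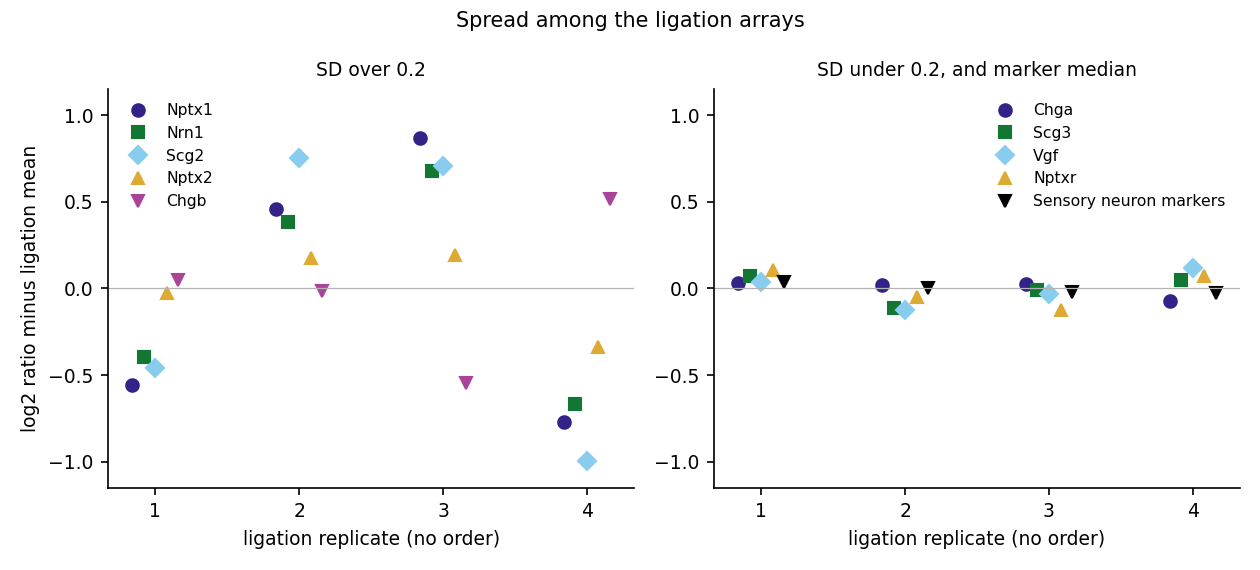
Log2 ratio on each ligation array minus the mean of the 4 (y axis), by replicate (x axis, points set side by side), for the 5 members with the larger SD (left) and for the other 4 with the median of the sensory neuron markers (right). Nptx1, Nrn1, Scg2 and Nptx2 lie below their mean on replicates 1 and 4 and above it on 2 and 3, Chgb lies lowest on replicate 3 and highest on 4, and the right-hand genes stay close to 0.

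Likeness was measured as the root mean square (RMS) difference of log2 ratio over the 8 arrays, against 10483 genes with 1 probe each. The closest genes to Nptx1 were Grik1 (a kainate receptor subunit, RMS 0.11), Slc16a12 (a transporter, 0.14) and Htr3a (a serotonin-gated channel subunit, 0.19). Those closest to Nrn1 were Grik1 (0.15), Casr (the calcium-sensing receptor, 0.16) and Kcnip4 (a Kv4 channel subunit, 0.17). Scg2 was nearest to Casr (0.17), Kcnip4 (0.26) and Nrn1 itself (0.27), so Scg2 had a member of the set among its 3 nearest genes. The closest pair within the set was Nptx1 with Nrn1 (0.23), and Nptx1 with Nptx2 stood far apart (1.76).

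The nearest genes to the others were named by the same rule. They were Mgmt, Dgkz and Cysltr2 for Nptx2 (RMS 0.12 to 0.14), Mt3, Abcd2 and Acsl6 for Chga (0.10 to 0.12), Fgf9, Spon2 and Asip for Chgb (0.19 to 0.20) and Cdipt, Gcnt2 and Pfkp for Scg3 (0.04 to 0.05). For Vgf they were PCOLCE2 (spelled as in the table), Irak3 and Fxyd5 (0.09 to 0.12), and for Nptxr they were Zfp212, Myo19 and Rps6kc1 (0.04 to 0.05), an RMS well within the rounding bounds of Nptxr.

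Relatives of the members were examined next. Scg5, which encodes the chaperone 7B2 of prohormone convertase 2, was lower by a log2 difference of -1.26 ± 0.06 (limma adjusted p = 3.73e-06), with mean ratios of -0.03 ± 0.06 (SD, control) and -1.28 ± 0.12 (ligation). Pcsk1n, encoding the granin-like proSAAS, an inhibitor of convertase 1, fell 1.52-fold (-0.60 ± 0.07, adjusted p = 1.49e-04). The short pentraxins Crp and Apcs, known as liver-derived plasma proteins, did not pass (log2 0.10 and -0.29, adjusted p = 0.389 and 0.0649), on spots with a mean sample intensity of 0.025 and 0.045 in control. For Apcs the test result was stronger with the replicate block and with rounding noise added, while rounding alone allowed -0.98 to 0.39.

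The enzymes that cut and modify granins and neuropeptides were called in both directions, at shares near those of all genes. Of 12 measured prohormone processing genes, a list that also holds Scg5 and Pcsk1n, 5 fell and 3 rose, where 35.9% of all genes fell and 30.2% rose, and the median log2 difference was -0.14 beside -0.05 for all genes. Pcsk2, the convertase that matures peptides in dense-core vesicles, fell 2.42-fold (-1.27 ± 0.07, adjusted p = 6.75e-06), and Pcsk6 fell 1.86-fold (-0.89 ± 0.07, adjusted p = 2.46e-05). The fifth fall, in Pam, the peptide-amidating enzyme, was small (-0.13 ± 0.03, adjusted p = 0.0117), and 3 of its 5 probes passed as lower. Furin, a convertase of the trans-Golgi network, rose 1.70-fold (0.77 ± 0.08, adjusted p = 9.16e-05), and the other rises were in Cpd (1.21-fold) and Ctsl (1.25-fold), named after their values were seen, as was Pam. Pcsk7 did not pass (log2 -0.05, adjusted p = 0.758). With quantile normalization the rise of Cpd was no longer past the threshold (adjusted p = 0.0668).

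Genes of dense-core vesicle formation and release were mostly lower, 16 of 25 measured genes falling and 4 rising, beside 35.9% and 30.2% of all genes, with a median of -0.39. For 1 of these falls, in Syt7 (log2 -0.39), rounding alone allowed -1.19 to 0.39. Another, in Snap25 (log2 -1.47), is also in the list of sensory neuron markers, whose median was -1.47. Cadps, the priming factor CAPS of these vesicles, fell 3.26-fold (-1.70 ± 0.05, adjusted p = 3.72e-07), with ratios of 0.03 ± 0.07 (SD) in control and -1.67 ± 0.05 in ligation. Syt1, a calcium sensor of release, fell 3.05-fold (-1.61 ± 0.06, adjusted p = 1.24e-06). Rab27b, a vesicle GTPase, had the largest fall of the list (-2.26 ± 0.16, adjusted p = 1.91e-05), and since its intensity went from 0.12 to 0.03, rounding alone allowed -2.71 to -1.86. Slc18a2, the vesicular monoamine transporter VMAT2, rose 3.55-fold (1.83 ± 0.07, adjusted p = 1.10e-06), with rounding bounds of 1.53 to 2.13. The other 3 rises, named after their values were seen, were in Syt4 (2.08-fold), Ptprn (the vesicle protein IA-2, 1.67-fold) and Cyb561 (1.42-fold). Syt4 had 2 probes, of which 1 passed. Ptprn2 was the flattest (log2 0.05, adjusted p = 0.343).

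**Figure D4:**
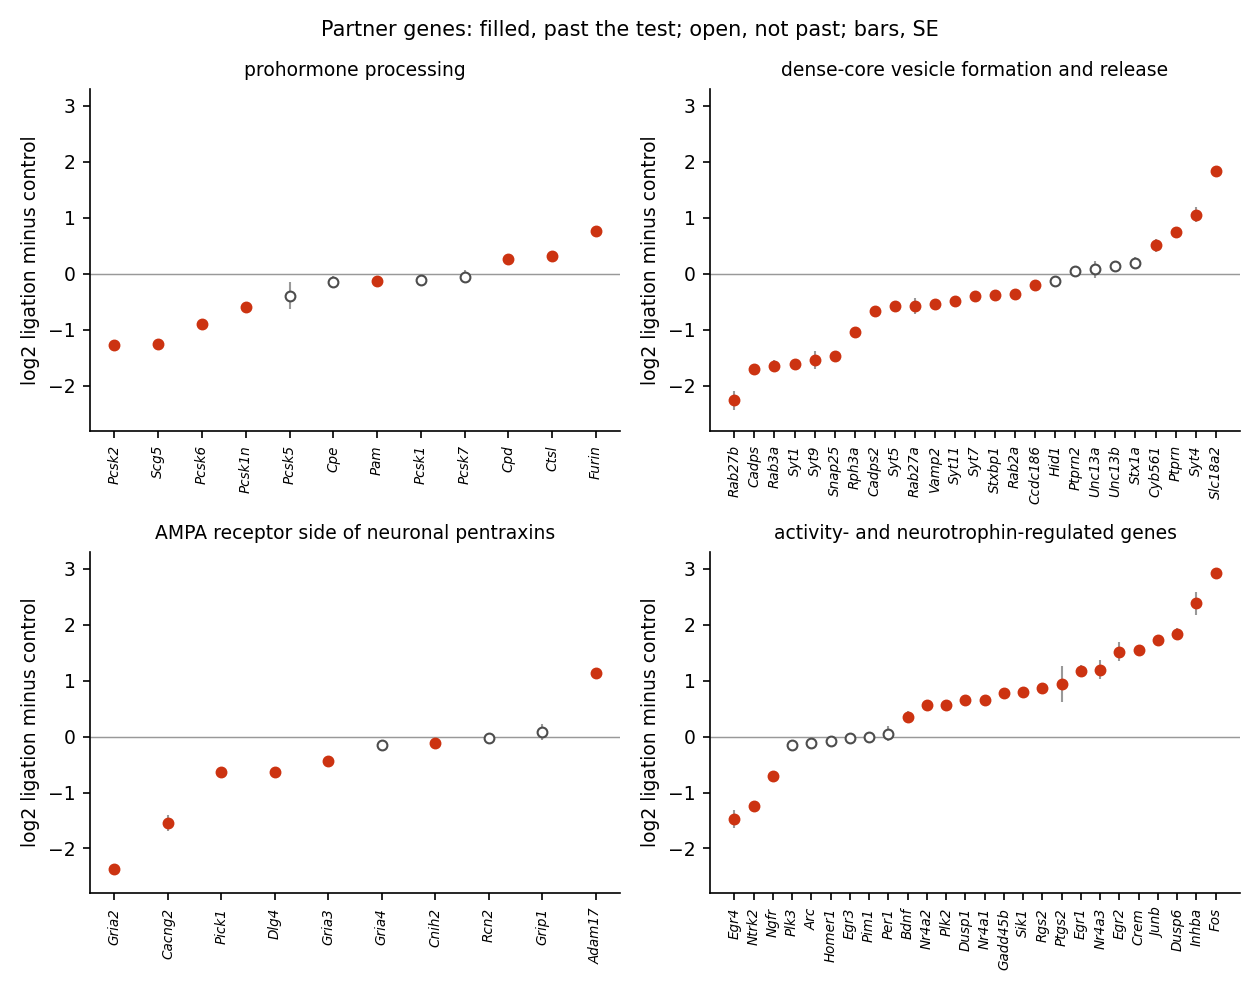
Log2 ligation minus control (y axis, bars SE, n = 4 per group) of the measured genes (x axis) of 4 lists, in order of size; filled red points passed the test and open points did not, and 1 fall of the activity list is not drawn. Genes past the test as lower outnumber those higher in the vesicle list (16 against 4) and the AMPA receptor list (6 against 1, Cnih2 within rounding), and rises outnumber falls in the activity list (17 against 4).

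On the side of the AMPA receptors that neuronal pentraxins bind, 6 of 10 measured genes were past the test as lower and 1 as higher, beside 35.9% and 30.2% of all genes, with a median of -0.30. For 1 of the 6, Cnih2 (log2 -0.11), rounding alone allowed -0.28 to 0.06, so that no direction could be given, and with rounding noise added 5 were past the test. Cnih2 and Syt7 were named after their values were seen. Gria2, a pore subunit, fell 5.19-fold (-2.37 ± 0.07, adjusted p = 5.85e-07), and Pick1, a scaffold protein that binds it, fell 1.56-fold (-0.64 ± 0.06, adjusted p = 5.37e-05). Adam17, the protease known to cleave the pentraxin receptor, rose 2.20-fold (1.14 ± 0.07, adjusted p = 7.53e-06). Rcn2, an endoplasmic reticulum protein known to bind neuronal pentraxins, did not pass (log2 -0.02, adjusted p = 0.753). Under quantile normalization between arrays 3 of the 6 did not pass, and with probes above the median intensity only 3 were counted.

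Nrn1, Nptx2 and Vgf are each known as genes induced by neural activity or neurotrophins, and a list of such genes moved upward, 17 of 27 measured genes rising and 4 falling, beside 30.2% and 35.9% of all genes, with a median of 0.65. Fos, an immediate-early transcription factor, rose most (2.91 ± 0.11, 7.53-fold, adjusted p = 1.03e-06). Crem, a CRE-binding factor, rose 2.93-fold (1.55 ± 0.07, adjusted p = 2.44e-06), on both of its probes. Falls were seen in Ntrk2, encoding the receptor of brain-derived neurotrophic factor (2.37-fold on its brighter probe, with a log2 difference of -0.16 on the other), in Ngfr, encoding the low-affinity neurotrophin receptor (1.64-fold), and in the transcription factor gene Egr4 (2.77-fold), all named after their values were seen. Egr4 was dim, at 0.0425 in control and 0.02 in ligation, and rounding alone allowed a log2 difference of -2.46 to -0.58. Pim1 had a ratio of exactly 1 on all 8 arrays, at an intensity of 0.028 in control, where rounding alone allowed a log2 difference of -1.004 to 1.004.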

How the data were processed

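Total RNA (100 ng per sample) went through 2 rounds of amplification, was labelled with Cy5 and hybridised against a Cy3-labelled control pool, without dye swap, per the labels' protocols. Agilent Feature Extraction 8.5.1.1 is named in the submitters' processing notes; those notes and the labels state neither background correction nor normalization. The deposited intensities of both channels (relative linear scale, printed in steps of 0.01) were used; the authors' p-values per array were not. A second deposited table holds log10 ratios equal to those of the intensities within 0.005 for 100% of spots.

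Log2 ratios were averaged over spots of a Sequence ID (23557 spots, 22491 probes; 22379 tested, with values on at least 2 arrays per group) and fitted with limma 3.58.1 (R 4.3.3, lmFit and eBayes, two-sided, Benjamini-Hochberg over all probes), after a test on simulated data. Array number limits precision: the median SE was 0.063. A gene took its brightest probe, named through RefSeq (GRCr8) by accession (2955 probes), symbol (10331) or synonym (1902). A further 320 probes, found by none of these, kept their deposited symbol. Members and lists were chosen with earlier results of these data known. Named genes were all members and, per list, the 3 with the smallest adjusted p, the largest rise and fall past the test and the smallest change, plus the 3 genes most like each member; 1 gene is not reported here.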

Additional observations from a re-analysis of the deposited data

Results flagged for a closer look

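Chga stood out on ligation replicate 4, with a log2 ratio of -2.33 against -2.22 to -2.23 on the other 3 ligation arrays. Its gap to the nearest array was 0.853 of the range of the group, above Dixon's 95% critical value for 4 samples. The whole range was 0.11 on the log2 scale. It was the 1 case among 18 groups examined (9 genes in 2 groups), and chance alone flags about 1 group in 20.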

How the results depend on the processing

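All 9 member differences kept their sign under every alternative run, but many runs could not have changed it. With the replicate block, trend and robust, averaged probes and, where the gene remained, probes above the median intensity, the differences equalled the main ones by construction. Leaving out each array could not change the sign of the 8 members whose groups did not overlap. The other runs were quantile normalization, loess, the sample channel alone and rounding noise. For Nptxr rounding alone allowed either sign. The member counts were 1 higher and 7 lower throughout, except with the sample channel alone and on ligation arrays 2 and 3 only, a setting added after seeing the data, where Nptxr was also counted as lower. Its brightest spot was higher in ligation and its ratio was lowest on those 2 arrays, so neither setting gives it a direction. Quantile normalization gave the smallest sizes for Vgf (1.19), Chga (-1.77), Nrn1 (-2.60), Chgb (-1.02) and Scg3 (-0.55); the sample channel alone gave 1.48 for Vgf. Without 1 array, the extremes were -3.90 and -3.36 for Nptx1 and -3.52 and -3.07 for Nrn1. Under quantile normalization 3044 probes were higher and 3321 lower, against 5897 and 7208, and the AMPA receptor list had 3 lower; the cause was not tested. With only probes above the median intensity, fewer were tested, and 3766 were higher and 4793 lower, with 9 falls in the vesicle list and 3 in the AMPA receptor list. With the replicate block 5743 probes were higher and 6834 lower, the vesicle list had 5 rises and the activity list 16 rises and 5 falls. Same-numbered arrays correlated at 0.074 to 0.161 in their deviations over probes, and every array correlated best with its own number, a hint from the data and not from the design. For dim genes such as Nptxr, printing steps limit what can be seen.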
